A study of Homo sapiens with 4 samples.

Results

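The mRNAs examined here encode subunits of CCR4-NOT, the main deadenylase complex of the cytoplasm. They were chosen by gene symbol (CNOT1, CNOT2, CNOT3, CNOT4, CNOT6, CNOT6L, CNOT7, CNOT8, CNOT10 and CNOT11), and all 10 were found among the 36203 gene identifiers in the deposited table. CNOT9 and TNKS1BP1, the other subunits looked up, are described beside them. The series holds 2 libraries of RNA recovered with an antibody to YTHDF3, sold by Santa Cruz Biotechnology (YTHDF3 RIP, replicates 1 and 2) and 2 libraries of input RNA with no antibody given (input, replicates 1 and 2). In RNA immunoprecipitation (RIP), a protein is captured by its antibody together with its RNA, which is set against the starting material. With no treatment named, all 4 libraries come from a human triple-negative breast cancer line, given as MDA-MB-231 in the sample labels and as MDA-MB-231Br, its brain-seeking derivative, in the growth protocol and the series design. Nothing in the labels tells whether each library had its own culture. The p-values therefore cover the spread between these libraries alone, and that spread may be technical. In the extraction text, embryos and an m6A antibody from another supplier are named, at odds with the cells and the RIP antibody of the samples. A RIP with a control antibody was not analysed here, so recovery through YTHDF3 and other retention of RNA cannot be told apart.

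CCR4-NOT shortens the poly(A) tail of mRNAs, which stops their translation and opens them to decapping and decay. CNOT1 is the scaffold on which the other subunits assemble. CNOT2 and CNOT3 form the NOT module, CNOT9 is a docking site for adaptor proteins, and CNOT10 with CNOT11 binds the amino-terminal part of CNOT1. The nuclease activity comes from CNOT6 or its paralog CNOT6L, paired with CNOT7 or its paralog CNOT8. CNOT4 is a RING ubiquitin ligase that is loosely attached to the human complex, and TNKS1BP1 is a tankyrase-binding protein that associates with it. YTHDF3 binds mRNA that carries N6-methyladenosine (m6A), and its relative YTHDF2 recruits CCR4-NOT to such mRNA through CNOT1. The values below concern the mRNAs of the subunits, not the proteins.

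Most m6A lies in a short consensus, of which GGACT (with U for T in the RNA) is a frequent form, and it is densest around stop codons. The GGACT nearest the stop codon is therefore shown for 6 subunits, in windows of 25 bases on the transcript strand, from 5′ to 3′, with GGACT in capitals. The windows were read from the GENCODE release 29 transcript of each gene, on GRCh38. They hold 2 mRNAs that were higher in YTHDF3 RIP (TNKS1BP1 and CNOT4), 2 that were lower (CNOT10 and CNOT6L) and 2 that did not pass the test (CNOT1 and CNOT8).
TNKS1BP1: caaggtcccaGGACTgggaaagccc
CNOT4: gtaatttcttGGACTtgaatctccc
CNOT10: aactctgccaGGACTgtgatgctgt
CNOT6L: aaaaagccaaGGACTaaatcaactt
CNOT1: atttggctgtGGACTtggacactga
CNOT8: atgaggatgtGGACTctgcccagga
The window of TNKS1BP1 is chr11:57300919-57300943 (minus strand), in the coding sequence, with the A of GGACT 108 bases before the last base of the stop codon. That of CNOT4 is chr7:135393959-135393983 (minus strand), coding, 355 bases before it. That of CNOT10 is chr3:32764720-32764744 (plus strand), coding, 308 bases before it. The window of CNOT6L is chr4:77713986-77714010 (minus strand), in the 3′ UTR, 6433 bases after the stop codon, and it is the sole GGACT of that transcript. The window of CNOT1 is chr16:58525181-58525205 (minus strand), coding, 361 bases before the end of the stop codon. That of CNOT8 is chr5:154875372-154875396 (plus strand), coding, 55 bases before it. A match marks letters only. Whether any of them carries m6A was not measured.

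The libraries stood apart in ways that bear on every value below. The table gives FPKM, in which reads are divided by the length of the gene and the size of the library, and no counts. With the commonest low value taken as 1 read, the relative depth was about 10378254 and 3105060 reads in RIP 1 and RIP 2, beside 6143572 and 7310960 reads in input 1 and input 2. RIP 2 held 35.9% of its length-weighted signal on chromosome 1, against 9.20% to 10.6% in the other libraries. Per chromosome, the median of RIP 2 minus RIP 1 over protein-coding genes lay on the log2 scale between -0.91 and -0.34 on each autosome other than 1 and 10 and on X. None of the 10 members lies on chromosome 1 or 10, and RIP 2 minus RIP 1 was above the median of its own chromosome for 8 of them, all but CNOT7 and CNOT10. Fitted on genes outside chromosomes 1 and 10, the members again gave 1 call higher and 3 lower. Their own values and fold changes are the same in that fit, so it does not address the chromosome 1 excess of RIP 2. With the libraries scaled to equal medians outside these chromosomes, 0 members were called higher and 2 lower, CNOT7 and CNOT10 (limma). The cells matched the labelled line in most markers. VIM, CD44, AXL, EGFR and FOSL1 were at 40.4 FPKM or more in every library, ESR1, CDH1, PTPRC, HBB, COL3A1 and ALB were listed at 0 in all 4, and PGR reached at most 0.118 FPKM. EPCAM had 1.10 and 0.187 FPKM in RIP 1 and RIP 2, against 11.98 and 3.88 FPKM in input 1 and input 2, so it was not near 0 in the inputs. For the input level of EPCAM, few cells with much of the mRNA and many with little cannot be told apart in bulk RNA. The mRNA of YTHDF3 itself had 75.8 and 72.4 FPKM in RIP 1 and RIP 2, against 10.3 and 13.8 FPKM in input 1 and input 2.

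The subunit mRNAs gave calls in both directions. CNOT4 was higher in YTHDF3 RIP than in input, CNOT7, CNOT10 and CNOT6L were lower, and the other 6 members did not pass the test. The scaffold mRNA, CNOT1, had nearly the same mean level on both sides, at 61.7 ± 9.85 FPKM in YTHDF3 RIP and 59.8 ± 8.73 FPKM in input (SD, n = 2 each). The catalytic mRNA CNOT7 had 5.98 ± 5.06 FPKM in YTHDF3 RIP and 38.3 ± 11.1 FPKM in input (SD, n = 2 each). Calls were made with limma on log2(FPKM + 1) at a Benjamini-Hochberg adjusted p under 0.05 over the 12848 genes with at least 1 FPKM in at least 2 libraries, and all 10 members passed that filter. Fold changes are on that log2 scale, which understates the change of low genes. Their SEs and confidence intervals use a variance that limma draws toward that of other genes of like level. Of the genes tested, 15.4% were called higher and 24.3% lower, 39.7% in all. The split depends on scaling: 1981 genes were higher and 3126 lower as deposited, and 3085 higher and 2831 lower after quantile normalization, which set the median of all genes at 0.13 in place of -0.10. The 4 called members of 10 are 40.0%, a share near that background, so the number of calls is no result about the complex. The median log2 fold change of the members was -0.43, beside -0.10 over all genes tested. Over the genes tested outside chromosomes 1 and 10, where all members lie, it was -0.24. Both RIP libraries lay above both inputs for CNOT4, as for 35.7% of all genes tested, and below both for CNOT6, CNOT6L, CNOT7, CNOT8 and CNOT10, as for 40.1%. For CNOT1, CNOT2, CNOT3 and CNOT11 the groups overlapped. With either input left out, no gene of the table passed, and the adjusted p of the 4 called members ranged from 0.216 to 0.327 (limma).

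**Figure D1:**
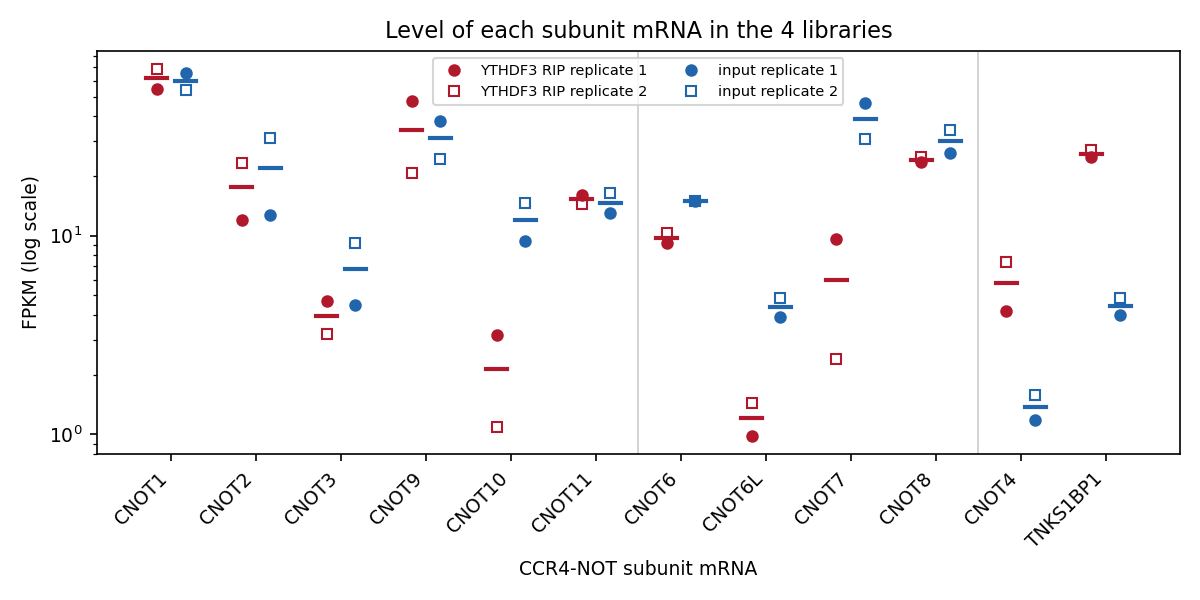
FPKM of 12 CCR4-NOT subunit mRNAs on a log axis, with YTHDF3 RIP left of input for each subunit, 1 symbol per library and a bar at the mean of the 2 libraries. From left to right the blocks are the scaffold and non-catalytic subunits, the nucleases, and the loosely attached CNOT4 and TNKS1BP1. The groups are far apart for CNOT7, CNOT10, CNOT6L, CNOT4 and TNKS1BP1 and overlap for CNOT1, CNOT2, CNOT3, CNOT9 and CNOT11.

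CNOT1, the scaffold (ENSG00000125107, chromosome 16, 58519951 to 58629886, minus strand in GRCh38), had 54.8 and 68.7 FPKM in RIP 1 and RIP 2, against 66.0 and 53.6 FPKM in input 1 and input 2. The 4 values interleave, with RIP 2 the highest and input 2 the lowest. The fold change on the log2 scale was 0.04 (SE 0.46, adjusted p = 0.946, limma), with a 95% confidence interval from -1.07 to 1.16. The interval is wide, so a change of 2-fold either way is not excluded at this replication. CNOT1 was the most abundant subunit mRNA per length in every library, and took 26.1% and 33.6% of the summed FPKM of the 12 subunits in RIP 1 and RIP 2, while it took 27.6% and 22.4% in input 1 and input 2. Exons of CNOT1 share 1086 bases with SETD6 on the opposite strand, which had 13.1 and 11.7 FPKM in RIP 1 and RIP 2, against 8.49 and 4.11 FPKM in input 1 and input 2. The library kit keeps strand, but whether counting used it is not given in the sources used here.

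The NOT module gave no call. CNOT2 (ENSG00000111596, chromosome 12, 70242994 to 70354993, plus strand) had 11.9 and 23.1 FPKM in RIP 1 and RIP 2, against 12.7 and 31.1 FPKM in input 1 and input 2. The second library was the higher one in both groups, and the libraries of a group differed more than the group means did. For CNOT2 the log2 difference was -0.25 (SE 0.61, adjusted p = 0.759, limma; 95% confidence interval -1.73 to 1.23). CNOT3 (ENSG00000088038, chromosome 19, 54137717 to 54155708, plus strand) had 4.70 and 3.20 FPKM in RIP 1 and RIP 2, against 4.49 and 9.16 FPKM in input 1 and input 2. RIP 1 stood just above input 1, so the groups overlapped. For CNOT3 the log2 fold change was -0.61 (SE 0.54, adjusted p = 0.387, limma). CNOT3 shares 548 exonic bases with LENG1 on the opposite strand, which was at 3.08 FPKM or less in every library.

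CNOT10 was lower in YTHDF3 RIP, while CNOT11, with which its protein forms a module, showed no call. CNOT10 (ENSG00000182973, chromosome 3, 32685145 to 32773875, plus strand) had 3.16 and 1.10 FPKM in RIP 1 and RIP 2, against 9.34 and 14.6 FPKM in input 1 and input 2. Both RIP values lie well under the lower input. CNOT10 had a log2 difference of -2.10 between the groups (SE 0.57, adjusted p = 0.031, limma), or -1.61 without RIP 2 and -2.60 without RIP 1. With no filter its adjusted p was 0.0676 (limma). Under the assumed read size and the length of 1 transcript, the RIP 2 value of CNOT10 rests on about 9.58 reads. That was the lowest such estimate among the subunits. CNOT11 (ENSG00000158435, chromosome 2, 101252802 to 101270316, plus strand) had 15.9 and 14.5 FPKM in RIP 1 and RIP 2, against 12.9 and 16.3 FPKM in input 1 and input 2. The 2 RIP values fall between the 2 inputs. For CNOT11 the log2 difference was 0.06 (SE 0.46, adjusted p = 0.925, limma; 95% confidence interval -1.04 to 1.16). The antisense gene CNOT10-AS1, which overlaps CNOT10, was listed at 0 in all 4 libraries.

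Of the nucleases with an exonuclease-endonuclease-phosphatase fold, CNOT6L was lower in YTHDF3 RIP and CNOT6 was not called. CNOT6 (ENSG00000113300, chromosome 5, 180494412 to 180578405, plus strand) had 9.18 and 10.3 FPKM in RIP 1 and RIP 2, against 15.0 and 14.9 FPKM in input 1 and input 2. The groups do not overlap, and the libraries within each lie close together. The log2 difference of CNOT6 was -0.57 (SE 0.46, adjusted p = 0.338, limma), with a 95% confidence interval from -1.68 to 0.53. RIP 2 minus RIP 1 was 0.15 and input 2 minus input 1 was -0.002 on the log2 scale. The SE, which draws on the variance of other genes, is thus wider than the spread of the CNOT6 values alone. CNOT6L (ENSG00000138767, chromosome 4, 77713387 to 77819615, minus strand) had 0.984 and 1.44 FPKM in RIP 1 and RIP 2, against 3.90 and 4.88 FPKM in input 1 and input 2. Both RIP values are far under both inputs, with a log2 difference of -1.29 (SE 0.41, adjusted p = 0.0486, limma). This call sits at the threshold: the adjusted p was 0.0741 with a pseudocount of 0.1, 0.104 after quantile normalization, 0.0659 after median scaling, 0.059 without a variance trend, 0.104 with no filter, 0.0511 with the shared title suffix as a block and 0.0609 without RIP 1. The processed pseudogene CNOT6LP1, a copy of CNOT6L on chromosome 15, had 0.426 and 0.991 FPKM in RIP 1 and RIP 2, against 1.496 and 2.33 FPKM in input 1 and input 2. Reads may be split between them. The copy is much shorter than the CNOT6L transcript of 8865 bases, so their FPKM cannot be added to rejoin split reads.

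Of the nucleases with a DEDD fold, CNOT7 was lower in YTHDF3 RIP and CNOT8 was not called. CNOT7 (ENSG00000198791, chromosome 8, 17224964 to 17246878, minus strand) had 9.56 and 2.40 FPKM in RIP 1 and RIP 2, against 46.2 and 30.5 FPKM in input 1 and input 2. Both RIP values are far under both inputs, and RIP 2 is the lowest. CNOT7 had a log2 difference of -2.69 (SE 0.66, adjusted p = 0.0246, limma), the lowest of the 10 members, and it was -1.87 without RIP 2 and -3.50 without RIP 1. With no filter the same difference had an adjusted p of 0.058 (limma). RIP 2 minus RIP 1 came to -1.64 on the log2 scale for CNOT7, beside a median of -0.55 for chromosome 8. CNOT8 (ENSG00000155508, chromosome 5, 154857553 to 154876793, plus strand) had 23.4 and 24.7 FPKM in RIP 1 and RIP 2, against 26.0 and 33.9 FPKM in input 1 and input 2. The RIP values of CNOT8 lie just under the lower input. For CNOT8 the log2 difference was -0.29 (SE 0.45, adjusted p = 0.614, limma; 95% confidence interval -1.38 to 0.79). The processed pseudogene CNOT7P1 had 0.722 and 0.378 FPKM in RIP 1 and RIP 2, against 2.38 and 1.91 FPKM in input 1 and input 2. CNOT7 shares 243 exonic bases with VPS37A on the opposite strand, which had 1.21 and 0.722 FPKM in RIP 1 and RIP 2, against 9.01 and 6.45 FPKM in input 1 and input 2.

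Shares within a paralog pair are taken inside 1 library, so its scaling does not enter them. Scaling does enter the log2 ratios below, most at low values, since a pseudocount is added to each FPKM. CNOT7 made up 28.99% and 8.84% of the summed FPKM of CNOT7 and CNOT8 in RIP 1 and RIP 2, compared with 64.0% and 47.4% in input 1 and input 2. Both RIP shares are under both input shares. On the log2(FPKM + 1) scale the ratio of CNOT7 to CNOT8 was -1.21 and -2.92 in RIP 1 and RIP 2, compared with 0.81 and -0.15 in input 1 and input 2, a mean difference of -2.39. CNOT6L made up 9.69% and 12.2% of the summed FPKM of CNOT6 and CNOT6L in RIP 1 and RIP 2, compared with 20.7% and 24.6% in input 1 and input 2. The log2 ratio of CNOT6 to CNOT6L was 0.71 higher in YTHDF3 RIP than in input on the log2(FPKM + 1) scale, and 1.17 higher with a pseudocount of 0.1. For each of the 2 pairs the two-sided exact permutation test gave p = 0.333, the smallest p that 2 libraries against 2 can give, so neither difference can pass a threshold in this design.

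**Figure D2:**
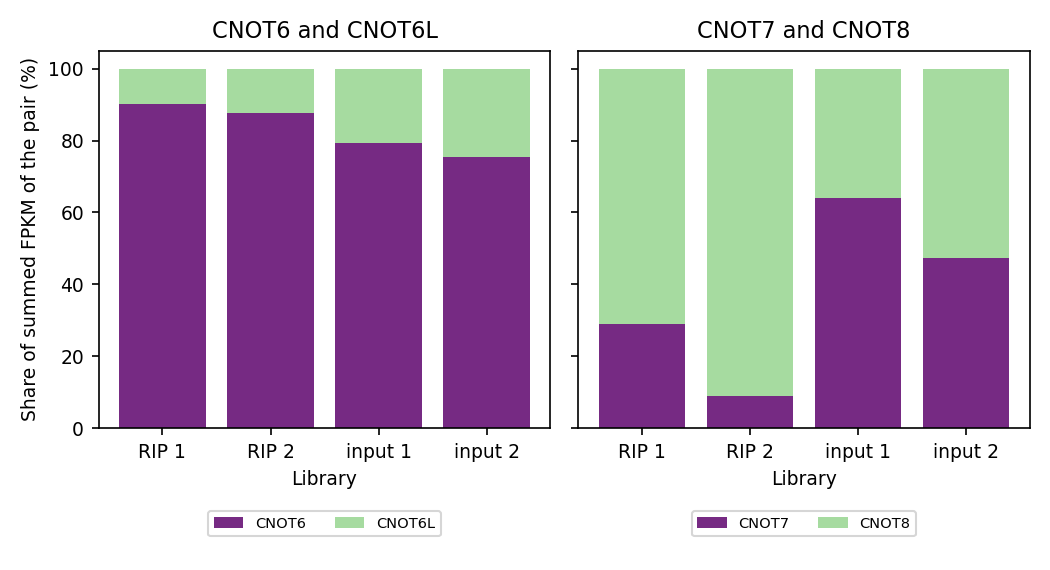
Share of each nuclease mRNA in the summed FPKM of its paralog pair, in percent, as 1 stacked bar per library with the RIP libraries left of the inputs. CNOT7 takes 28.99% and 8.84% of its pair in RIP 1 and RIP 2, compared with 64.0% and 47.4% in input 1 and input 2, and CNOT6 takes the larger share of its pair in all 4 libraries.

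CNOT4, the ubiquitin ligase (ENSG00000080802, chromosome 7, 135361795 to 135510127, minus strand), was the 1 member called higher. It had 4.19 and 7.35 FPKM in RIP 1 and RIP 2, against 1.18 and 1.57 FPKM in input 1 and input 2. Both RIP values lie above both inputs, and in the inputs CNOT4 was the lowest of all subunit mRNAs. CNOT4 had a log2 difference of 1.47 (SE 0.47, adjusted p = 0.0467, limma), or 1.13 without RIP 2 and 1.82 without RIP 1. This call too sits at the threshold: the adjusted p was 0.0659 with a pseudocount of 0.1, 0.0581 after median scaling, 0.0505 without a variance trend and 0.101 with no filter. Under the assumed read size and a transcript length of 2215 bases, the input values of CNOT4 rest on about 16.0 and 25.5 reads. That transcript has no annotated 3′ UTR, so these reads may be understated. The pseudogene CNOT4P1 was listed at 0 in all 4 libraries.

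The other subunits looked up were TNKS1BP1 and CNOT9. TNKS1BP1 (ENSG00000149115, chromosome 11, 57299638 to 57324952, minus strand) had 24.8 and 26.8 FPKM in RIP 1 and RIP 2, against 3.97 and 4.86 FPKM in input 1 and input 2. The libraries within each group lie close together and the groups are far apart. Its log2 fold change of 2.31 (SE 0.47, adjusted p = 0.0153, limma) was higher than 94.5% of all genes tested, and it passed under every scaling, pseudocount, trend and filter tried. CNOT9 (ENSG00000144580, chromosome 2, 218568580 to 218597080, plus strand) had 47.4 and 20.7 FPKM in RIP 1 and RIP 2, against 37.7 and 24.2 FPKM in input 1 and input 2. The inputs fall between the RIP values. For CNOT9 the log2 difference was 0.05 (SE 0.57, adjusted p = 0.944, limma).

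**Figure D3:**
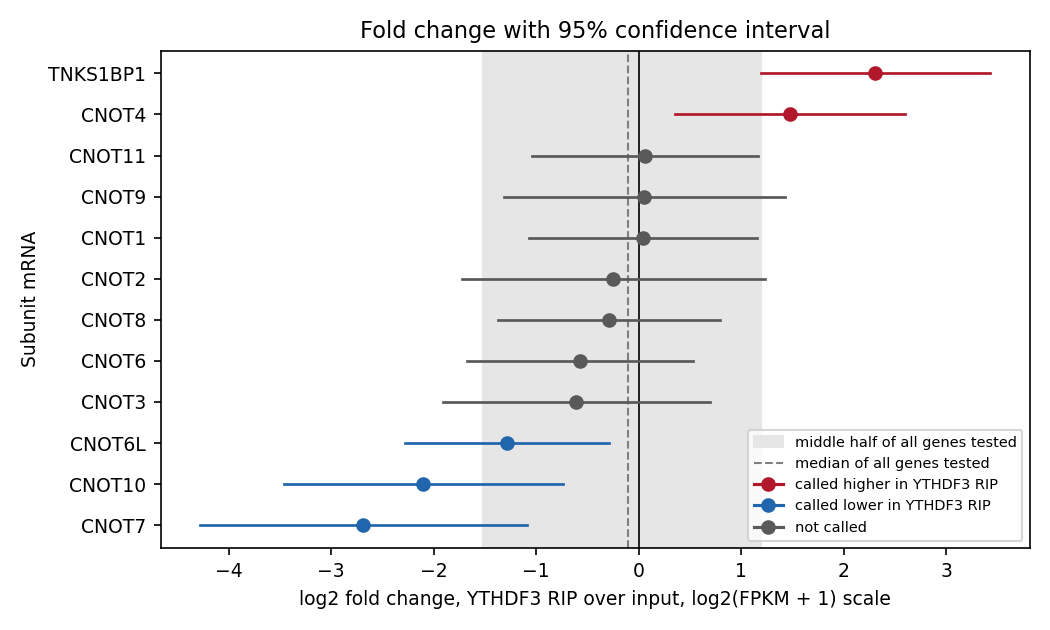
Log2 fold change of YTHDF3 RIP over input for 12 subunit mRNAs, in order, with the 95% confidence interval from limma, beside the median (-0.10) and the middle 50% of all 12848 genes tested (shaded, -1.52 to 1.19). TNKS1BP1 and CNOT4 are called higher, CNOT6L, CNOT10 and CNOT7 are called lower, and the intervals of the other 7 include 0.

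In YTHDF3 RIP the order of mean FPKM was CNOT1 (61.7), CNOT9 (34.1), TNKS1BP1 (25.8), CNOT8 (24.1), CNOT2 (17.5), CNOT11 (15.2), CNOT6 (9.74), CNOT7 (5.98), CNOT4 (5.77), CNOT3 (3.95), CNOT10 (2.13) and CNOT6L (1.21). In input it was CNOT1 (59.8), CNOT7 (38.3), CNOT9 (30.9), CNOT8 (30.0), CNOT2 (21.9), CNOT6 (15.0), CNOT11 (14.6), CNOT10 (11.96), CNOT3 (6.82), TNKS1BP1 (4.42), CNOT6L (4.39) and CNOT4 (1.38). Of the 11 pairs of neighbours in these orders, 6 in YTHDF3 RIP and 8 in input overlapped in their library values, so those ranks are not resolved. The gap under CNOT1 was clear of overlap in both groups. The 12 subunits summed to 210.0 and 204.3 FPKM in RIP 1 and RIP 2, against 239.3 and 239.7 FPKM in input 1 and input 2.

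The transcripts of the subunits differ in length, base composition and GGACT content. Over 10835 protein-coding genes tested with a complete GENCODE transcript, the fold change was higher for longer transcripts, with Spearman's rho = 0.352. This is a relation across genes, which are no independent replicates. Of 4 equal classes by length, the class with the longest transcripts (4945 bases or more) had a median log2 fold change of 0.81, with 7.42% of its genes called lower, and the shortest class had -1.28. CNOT6L (8865 bases) and CNOT7 (6913 bases) belong to the longest class and were both called lower. CNOT1 (8471 bases) and CNOT6 (6303 bases), also in that class, were not called, and TNKS1BP1 (5952 bases), in that class too, was called higher. CNOT7 and CNOT6L share long 3′ UTRs, of 5756 and 7044 bases, and a low GC content, of 35.7% and 36.3%, lower than in all but 1.97% and 2.83% of the genes compared. These traits do not separate the called members: CNOT6, not called, has a 3′ UTR of 4205 bases and 39.0% GC, and CNOT10, called lower, has a 3′ UTR of 264 bases and 44.7% GC. In the lowest of 4 classes by GC content the median log2 fold change was -0.56. TNKS1BP1 has a GC content of 61.4%.

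**Figure D4:**
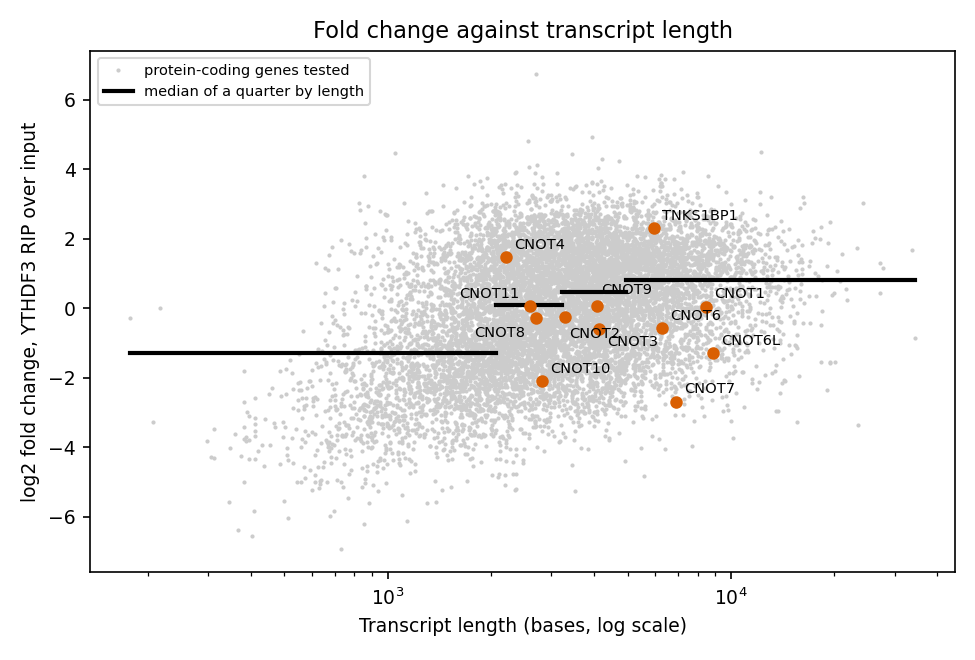
Log2 fold change of YTHDF3 RIP over input against transcript length in bases (log axis) for 10835 protein-coding genes (grey), with the 12 subunits in orange and black lines at the median of each of 4 equal classes by length. CNOT7 and CNOT6L lie under the median of the longest class, 0.81, at -2.69 and -1.29.

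GGACT was searched on the transcript strand alone, since m6A sits on the RNA. TNKS1BP1 holds 23 copies, 3.86 per kilobase, a density above 99.6% of the genes compared, and 3 of them lie within 400 bases of the end of the stop codon. CNOT4 holds 2, of which 1 lies in the coding sequence, in a representative transcript that has no annotated 3′ UTR. Among the members called lower, CNOT7 holds 9, CNOT10 holds 2 and CNOT6L holds 1. CNOT1 holds 11, all in the coding sequence, and CNOT11 holds none. At least 1 GGACT within 400 bases of the end of the stop codon was found in 5 of the 10 members, CNOT1, CNOT4, CNOT8 and CNOT10 among them, beside 55.9% of all genes compared, 59.9% of those called higher and 47.1% of those called lower. Across genes, the density of GGACT had Spearman's rho = 0.141 with the fold change, and the number of copies, which grows with length, had 0.353. Only 1 transcript per gene was searched.

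Other genes of deadenylation and decay were described by 5 lists, which hold 48 tested genes of 54 in the table, 10 called higher and 7 lower with the 2 other subunits above included. That is 35.4% called, beside 39.7% of all genes tested, where 15.4% were higher and 24.3% lower. The lists are small and were not tested as sets. Of 8 genes listed as other deadenylases, 3 (37.5%) were higher (PAN2 at 1.73, PAN3 at 1.87 and NOCT at 1.75 on the log2 scale). In that list 1 was lower, PARN, a poly(A)-specific ribonuclease, at -1.60 (SE 0.50, adjusted p = 0.0462, limma). Whether each listed product itself removes poly(A) tails was not examined here. PAN2 and PAN3 form the deadenylase that starts tail shortening. TOE1, on chromosome 1, had the largest fold change of that list and was not called, with 17.6 and 82.4 FPKM in RIP 1 and RIP 2, against 7.69 and 10.9 FPKM in input 1 and input 2. Of 18 adaptors that bring CCR4-NOT to mRNAs, 6 (33.3%) were higher (YTHDF2 at 3.26, and TOB1, TOB2, ZFP36, ZFP36L2 and SAMD4A at 1.79 to 1.95) and 1 was lower, BTG3, at -2.54 (SE 0.56, adjusted p = 0.019, limma). YTHDF2, on chromosome 1, had 79.7 and 695 FPKM in RIP 1 and RIP 2, against 22.6 and 24.98 FPKM in input 1 and input 2, so its size rests much on RIP 2. The median log2 fold change was 1.67 in the deadenylase list and 1.17 in the adaptors. A choice made after seeing the data kept only the genes outside chromosomes 1 and 10. There the median was 1.00 for 6 genes of the deadenylase list and 1.29 for 14 adaptors, beside -0.24 over all such genes.

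In the lists of decapping and 5′ decay genes and of poly(A)-binding proteins with their partners, all calls were lower. Of 14 decapping and 5′ decay genes, 0 were higher and 3 were lower (XRN1 at -1.87, PATL1 at -1.72 and LSM14A at -1.48) by limma, or 1 and 4 at an unadjusted p under 0.05. The 21.4% called lower is near the 24.3% of all genes tested. The 5′ exonuclease mRNA XRN1 had 1.17 and 1.05 FPKM in RIP 1 and RIP 2, against 4.53 and 9.81 FPKM in input 1 and input 2. DDX6, an RNA helicase that binds CNOT1, had the largest fold change of that list, 1.63 (SE 0.64, adjusted p = 0.0802, limma). Of 6 poly(A)-binding proteins and their partners, 0 were higher and 2 were lower by limma, PAIP1 and PAIP2, at -3.28 and -3.21. At an unadjusted p under 0.05 it was 0 and 3. The poly(A)-binding proteins PABPC1 and PABPN1, at -0.79 and -0.72, were not called (adjusted p = 0.260 and 0.258, limma). The 2 called lower are 33.3% of that small list, beside 24.3% of all genes tested. PAIP1, a partner of the poly(A)-binding protein, had 4.71 and 2.89 FPKM in RIP 1 and RIP 2, against 47.0 and 42.4 FPKM in input 1 and input 2. PABPC4, on chromosome 1, had the largest fold change of its list, 0.89 (adjusted p = 0.488, limma). The medians of these lists were -0.66 and -0.78, beside -0.10 over all genes tested. Outside chromosomes 1 and 10 they were -0.66 for 14 genes and -0.79 for 5 genes, beside -0.24 over all such genes.

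**Figure D5:**
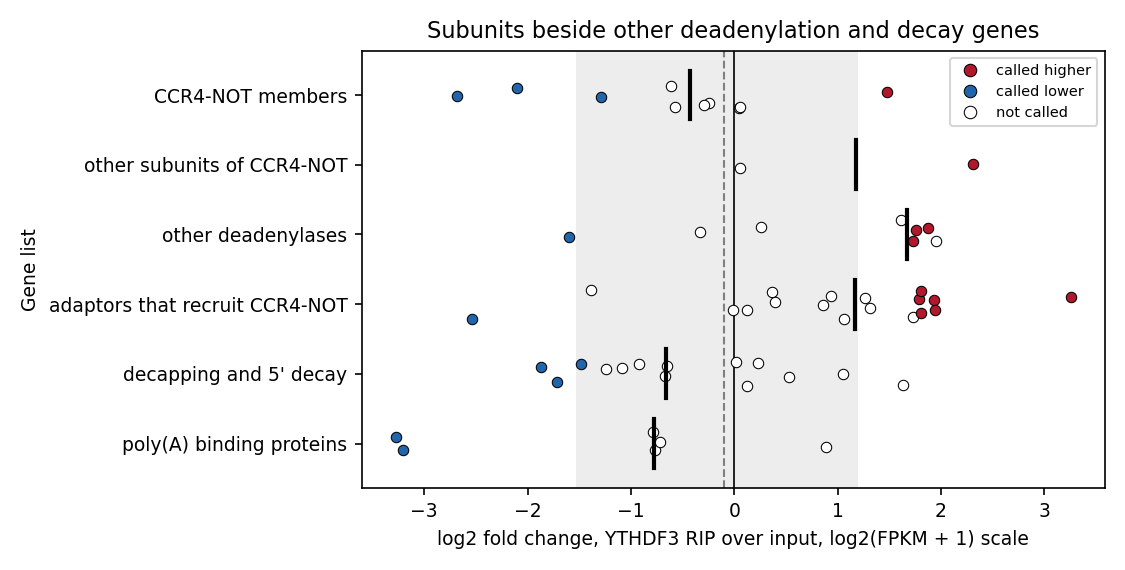
Log2 fold change of YTHDF3 RIP over input for the 10 CCR4-NOT members and for 5 lists of related genes, 1 point per gene, with a black line at the median of each list. Shading and the dashed line give the middle 50% and the median of all genes tested. The members, all outside chromosomes 1 and 10, centre at -0.43, the list of other deadenylases at 1.67 and the adaptors at 1.17. Outside chromosomes 1 and 10 that deadenylase list centres at 1.00 and the adaptors at 1.29.

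The genes whose pattern over the 4 libraries was most like that of CNOT1 were LOXL2, TAF1B, CETN2, COA5 and NNMT. Likeness was the root mean square distance of log2(FPKM + 1) profiles, each centred on its own mean, over 4 libraries among protein-coding genes tested, and these 5 had distances from 0.0357 to 0.0649. LOXL2 had 43.0 and 54.1 FPKM in RIP 1 and RIP 2, against 53.2 and 40.3 FPKM in input 1 and input 2. Within the complex, CNOT11 was nearest to CNOT1, at 0.268, and CNOT7 was farthest, at 1.53.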

How the data were processed

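The authors deposited 1 value per gene for 2 YTHDF3 RIP and 2 input libraries. No header names the unit. It was read as FPKM, since the deposited values are not whole, their sums differ between groups (301226 and 301483 in RIP, 700141 and 690869 in input) and, multiplied by exon length in kilobases, become alike (1688125 and 1733992, against 1621380 and 1566173). HISAT2 and GRCh38 (hg38) are named in the submitters' processing notes; for its version, the counting program, the annotation and strand use, the entry is: not given in the sources used here. Since FPKM adjusts for library size and length only, RNA that fills 1 library lowers all other values there. Depth is not stated: low values came out as whole reads (within 0.03) for 22.8% to 26.2%, so no count test was run, and the read numbers quoted are rough. Those of the subunits use the length of 1 transcript per gene, not of all its exons.

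The table has 36217 rows, of which 14 repeat an identifier and were left out, and 36125 of 36203 identifiers were found in GENCODE release 29, which gave positions and transcripts (1 per gene, by APPRIS rank). The GGACT window of CNOT6 is not reported here. RIP was compared with input in limma 3.58.1 (R 4.3.3, mean-variance trend, no block, two-sided, Benjamini-Hochberg over 12848 genes) on log2(FPKM + 1). Paralog ratios were tested with exact permutations in SciPy 1.17.1. The members and lists were chosen with earlier results of these data known. The rule for genes named beyond the members took CNOT9, TNKS1BP1, YTHDF3, the extremes of each list and the 5 nearest to CNOT1. Cell line markers come from a list. The called list genes, the pseudogenes and the overlapping genes were added after their values were seen. Alternatives were another pseudocount, no filter, other scalings, no trend, a block and leaving out each library.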

Additional observations from a re-analysis of the deposited data

How the results depend on the processing

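CNOT4, CNOT6L, CNOT7, CNOT10 and TNKS1BP1 kept their direction under every alternative, but most alternatives could not have reversed it. For each of them both RIP libraries lay on the same side of both inputs, so leaving out 1 library could not. No filter, no trend and the block left the fold change itself unchanged. Members called higher numbered 0 with a pseudocount of 0.1, with median scaling, without a trend and with no filter, where 0 were lower too (limma; in each of these, an unadjusted p under 0.05 was met by 1 higher and 3 lower). The lists then had 5 higher with the pseudocount, and 1 higher and 3 lower with no filter. Over all genes, 718 were higher with no filter and 3085 after quantile normalization, which moved the higher share of calls from 38.8% to 52.1% and the median log2 fold change to 0.13. Leaving out 1 library gave 0 to 1 members higher and 0 to 3 lower, 0 to 15 list genes higher and 0 to 10 lower, and 0 to 3515 genes higher and 0 to 3933 lower in all. The 0s came without input 1 (unadjusted p under 0.05 for 737 higher and 2299 lower) and without input 2 (608 and 2257); the fit then assumes that the lone input varies like the RIP libraries. With 1 of the 4 libraries left out, the sign of some uncalled subunits changed. CNOT1 ran from -0.12 to 0.20, CNOT2 from -0.86 to 0.36, CNOT11 from -0.10 to 0.22 and CNOT9 from -0.52 to 0.63. The uncalled CNOT3, CNOT6 and CNOT8 stayed negative each time. The difference between RIP and input in the log2 ratio of CNOT6 to CNOT6L was 1.17 with a pseudocount of 0.1, beside 0.71 with 1. Adding 1 understates the change of low genes, as said above, and CNOT6L had 0.984 and 1.44 FPKM in RIP 1 and RIP 2. Each suffix in the titles is shared by 1 RIP and 1 input library (correlation of deviations 0.214, with 2 pairs), and with it as a replicate block 1 member was higher and 2 were lower, CNOT6L being lost (adjusted p = 0.0511).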
